A study of Mus musculus with 5 samples.

Results

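Transcripts of the Hippo pathway, its TEAD transcription factors and some genes controlled by YAP were described in cardiomyocytes (CMs) of adult mouse hearts. The members were 10 genes named in advance by symbol: Yap1, Wwtr1, Tead1, Tead4, Lats1, Lats2, Amotl1, Ctgf, Cyr61 and Crim1. Of these, 9 were among the 12446 genes in the deposited table, and Tead4 was not analysed here. Bulk RNA sequencing compared 3 OSKM-CMs libraries (replicates 1, 2 and 3) with 2 Control-CMs libraries (replicates 3 and 5). All animals were male C57BL/6 mice injected into the thoracic cavity at 8 weeks of age, and their age is labelled as 12 to 14 weeks. OSKM-CMs came from animals that received 4 adeno-associated viral vectors mixed together, AAV-cTnT-Oct4-His6 for Oct4, AAV-cTnT-Sox2-Flag for Sox2, AAV-cTnT-Klf4-HA for Klf4 and AAV-cTnT-Myc-V5 for Myc. Control-CMs came from mice given AAV-cTnT-BFP, which encodes blue fluorescent protein, at the summed titer of those vectors. The cTnT promoter is that of cardiac troponin T, so expression was directed to cardiomyocytes, and the vectors add the factors to cells that keep their own genes. No label ties a library to its own mouse, and p-values therefore reflect the spread among these libraries alone, which may be technical.

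The Hippo pathway is a kinase cascade that restrains growth. The kinases MST1 and MST2, encoded by Stk4 and Stk3, act with the scaffold SAV1 to activate the kinases LATS1 and LATS2. These phosphorylate the coactivators YAP (Yap1) and TAZ (Wwtr1), which are then held in the cytoplasm or degraded. Unphosphorylated YAP and TAZ enter the nucleus and bind TEAD factors, which recognise the MCAT element first described in muscle gene promoters. YAP is needed for cardiomyocyte proliferation in the fetal heart, and its activity falls as the heart matures. Transcript levels were measured here, and phosphorylation and protein were not.

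Library totals over the listed genes ranged from 2691796 to 3861805 reads. Levels are given as scaled RPKM, meaning reads corrected for gene length and library size, divided by a factor for library composition (TMM, trimmed mean of M values). Log2 fold changes are for log2 of scaled RPKM plus 1, OSKM-CMs over Control-CMs, from limma with Benjamini-Hochberg adjustment over all 10915 genes tested. Among those genes 1740 were higher and 1558 lower at an adjusted p below 0.05 (30.2% in all), and the median log2 fold change was 0.02. Scaling to library totals alone moved that median to 0.36 and gave 3985 genes higher and 650 lower, so fold changes below are relative to the TMM scale. The cardiomyocyte label was checked with 8 markers, whose summed level was 15489 to 18683 scaled RPKM in OSKM-CMs and 27224 to 29848 in Control-CMs. Of the 8, 6 were lower, 0 higher and 2 did not pass. The 6 lower ones were at 0.345 (Ryr2) to 0.658 (Tnnt2) times the control level. The 2 that did not pass, Actc1 and Actn2, were at 1.03 and 1.17 times it. Fibroblast markers summed to 71.4 to 150.02 scaled RPKM in OSKM-CMs and 36.8 to 73.5 in Control-CMs, and none of the 7 in the table was at 0 throughout. The fibroblast sums overlapped between the groups, since OSKM-CMs replicate 2 lay below Control-CMs replicate 3. Of those 7 markers, 3 collagen genes were higher and 0 lower, and Pdgfra, Dcn, Lum and Dpt did not pass. Endothelial markers summed to 36.9 to 76.1 against 90.6 to 114.7 scaled RPKM, with 2 of 8 lower and 0 higher. Macrophage markers (8.15 to 40.2 against 13.04 to 53.4), mural markers (62.7 to 98.5 against 70.8 to 87.2) and mesothelial markers (2.06 to 5.03 against 3.36 to 8.75) overlapped between the groups in summed level. Among the mural markers 2 of 7 were higher, Pdgfrb and Cspg4, and no macrophage or mesothelial marker passed. In bulk samples, fewer cells of a type, less RNA per cell and lower levels of particular genes within the cells cannot be told apart.

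Of the 9 members, 3 rose (Ctgf, Crim1 and Wwtr1), 1 fell (Amotl1) and 5 did not pass (Yap1, Tead1, Lats1, Lats2 and Cyr61). Across all tested genes 15.9% were higher and 14.3% lower. The median log2 fold change of the members was -0.07. The libraries of the groups did not overlap for 6 of the 9, against 57.9% of all tested genes. Every member was read in every library, at no less than 1.56 RPKM, so none passed the minimum level through a single group. In the authors' deposited table, which used another test, 6 of the 9 had an FDR below 0.05 (31.8% of its genes did, 16.4% higher and 15.4% lower). These were the 4 above, with Cyr61 (log2 fold change -0.71, FDR 0.0165 in the authors' deposited table) and Tead1 (-0.49, FDR 0.0443 in the authors' deposited table) lower.

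**Figure D1:**
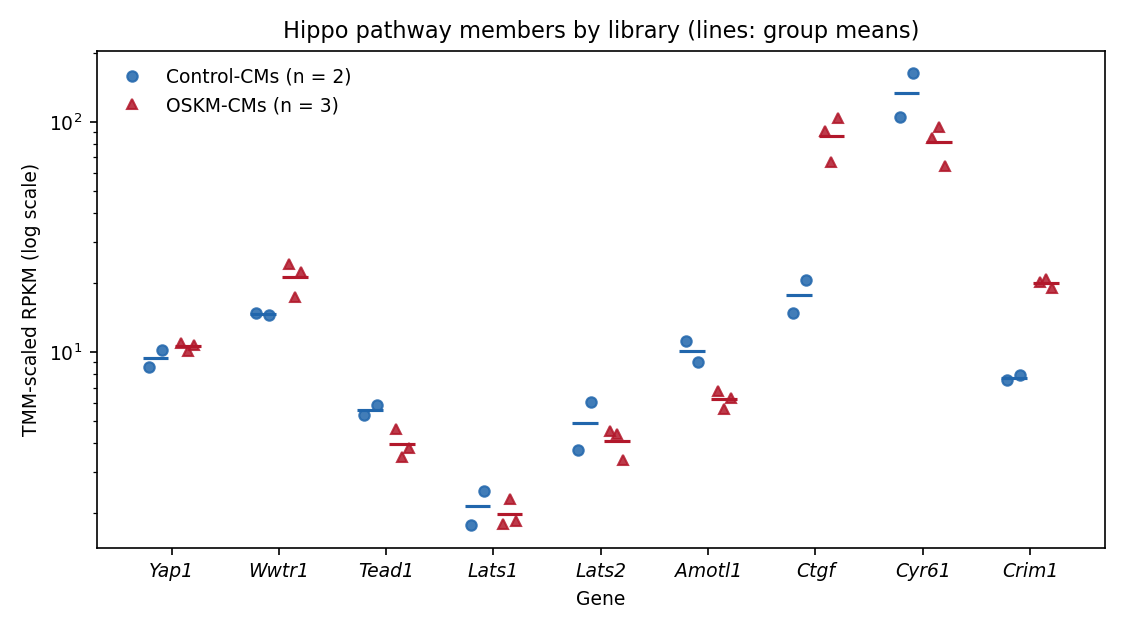
Level of each member in each library, as TMM-scaled RPKM on a log axis; circles are the 2 Control-CMs libraries, triangles the 3 OSKM-CMs libraries, and lines the group means. Ctgf, Crim1 and Wwtr1 lie wholly above the controls, Amotl1, Tead1 and Cyr61 wholly below, and Yap1, Lats1 and Lats2 overlap.

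Promoter sequence is shown for the members where the TEAD motif was found, since that motif is what links the coactivators to their targets. Windows of 250 bases before the annotated start were matched by symbol for 7 of the 9 members, all but Ctgf and Tead1, from RefSeq on GRCm38.p6. This is a later build than the mm9 of the submitters' processing notes, and coordinates below belong to GRCm38.p6. The search was for GGAATG on either strand (CATTCC on the other). Capitals mark the match, and each sequence reads 5′ to 3′ along the gene's own strand.

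Cyr61 (chr3:145649986-145650235, minus strand): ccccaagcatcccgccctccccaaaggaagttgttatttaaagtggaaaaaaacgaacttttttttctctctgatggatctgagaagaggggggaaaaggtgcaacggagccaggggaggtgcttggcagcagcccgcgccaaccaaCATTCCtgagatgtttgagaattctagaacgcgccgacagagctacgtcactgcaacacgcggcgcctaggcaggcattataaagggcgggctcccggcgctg
Crim1 (chr17:78199998-78200247, plus strand): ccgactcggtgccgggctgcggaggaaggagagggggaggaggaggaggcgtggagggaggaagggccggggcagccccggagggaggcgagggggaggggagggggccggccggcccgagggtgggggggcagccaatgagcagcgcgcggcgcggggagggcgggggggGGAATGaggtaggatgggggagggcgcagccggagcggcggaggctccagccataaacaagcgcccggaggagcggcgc
Wwtr1 (chr3:57575911-57576160, minus strand): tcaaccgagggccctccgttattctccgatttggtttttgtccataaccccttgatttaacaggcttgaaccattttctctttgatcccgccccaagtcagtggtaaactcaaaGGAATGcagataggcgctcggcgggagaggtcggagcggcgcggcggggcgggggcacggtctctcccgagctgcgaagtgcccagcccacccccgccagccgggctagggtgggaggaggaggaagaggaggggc
Yap1 (chr9:8004597-8004846, minus strand): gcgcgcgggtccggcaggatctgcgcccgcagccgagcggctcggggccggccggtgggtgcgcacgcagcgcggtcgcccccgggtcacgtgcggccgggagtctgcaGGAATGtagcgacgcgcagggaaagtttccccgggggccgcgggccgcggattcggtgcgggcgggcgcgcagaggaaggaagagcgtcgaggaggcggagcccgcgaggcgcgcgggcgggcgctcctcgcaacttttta

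Each of these windows held 1 match, beginning 103 bases before the start in Cyr61, 79 in Crim1, 136 in Wwtr1 (170 from a second annotated start) and 141 in Yap1. No match lay in the windows of Lats1, Lats2 (2 starts) or Amotl1. Among all 32851 RefSeq promoter windows of this length, 12.6% held the motif. The 4 members with a match did not move together: Crim1 and Wwtr1 rose, while Yap1 and Cyr61 did not pass. The AP-1 motif TGANTCA (6.75% of all windows) and the octamer ATGCAAAT bound by Oct4 (1.6%) were absent from the windows of all 7 members. The E-box CACGTG bound by Myc (6.02%) occurred once in the Yap1 window, where it does not overlap the TEAD match, and once in 1 of the Lats2 windows. All motifs were chosen with the values known, and a match describes letters, not binding.

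Among the coactivators, Wwtr1 rose modestly and the interval for Yap1 included no change. Wwtr1 (ENSMUSG00000027803.8), which encodes TAZ, stood at 24.03, 17.4 and 22.3 scaled RPKM in the OSKM libraries (replicates 1, 2 and 3, the order kept below) and at 14.8 and 14.5 in the control libraries (replicates 3 and 5). All OSKM libraries were above both controls, with replicate 2 the nearest. The mean went from 14.6 ± 0.189 (SD, n = 2) to 21.2 ± 3.44 (SD, n = 3), 1.45-fold (0.50 on the log2 scale, SE 0.16, limma adjusted p = 0.0484). That call was marginal: it was lost without OSKM-CMs replicate 1 (0.41, limma adjusted p = 0.136), OSKM-CMs replicate 3 (0.46, 0.126), Control-CMs replicate 3 (0.51, 0.132) or Control-CMs replicate 5 (0.49, 0.152). It also missed the threshold in 4 other settings, at limma adjusted p from 0.0501 to 0.072.

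Yap1 (ENSMUSG00000053110.7) had 10.9, 10.1 and 10.7 scaled RPKM in the OSKM libraries and 8.55 and 10.2 in the controls. The second control lay inside the OSKM range. The log2 fold change was 0.16 with a 95% interval of -0.16 to 0.48 (limma adjusted p = 0.413), so a rise of up to that upper bound remained possible. With library totals alone Yap1 passed at 0.54 (limma adjusted p = 0.0158), on a scale where the median of all genes was 0.36. Within a library the ratio of Wwtr1 to Yap1, both per length, was 2.20, 1.73 and 2.08 in OSKM-CMs and 1.72 and 1.42 in controls. TAZ transcripts outnumbered those of YAP in all 5 libraries.

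Tead1 was lower in every OSKM library but did not pass. Tead1 (ENSMUSG00000055320.8), which encodes the TEAD factor best known in heart muscle, had 4.63, 3.49 and 3.84 scaled RPKM in OSKM-CMs and 5.30 and 5.90 in controls. Its log2 fold change was -0.41 (SE 0.17, 95% interval -0.80 to -0.02, limma adjusted p = 0.10), and limma voom on reads recovered from the RPKM called it lower (-0.50, adjusted p = 0.0324). With library totals alone it was -0.06, with no call. Tead2, a paralogue prominent in the early embryo, rose from 0.45 ± 0.144 scaled RPKM in controls to 1.6 ± 0.0806 in OSKM-CMs, a log2 difference of 0.85 (SE 0.19, limma adjusted p = 0.0141). Its control libraries held 8 and 5 reads, and it met the minimum level only through the OSKM libraries, so its call has limited weight. The Tead2 call was lost without OSKM-CMs replicate 1 (0.81, limma adjusted p = 0.0561) or Control-CMs replicate 5 (0.76, 0.0645). Tead3 had 1.21 scaled RPKM in OSKM-CMs and 1.29 in controls, with overlapping libraries. The 3 listed TEAD genes together gave 6.10 to 7.49 scaled RPKM in OSKM-CMs and 6.92 to 7.76 in controls. Tead1 made up 61.8%, 57.2% and 56.5% of that sum in the OSKM libraries, and 68.3% and 85.3% of it in the control libraries. The share was lower in all OSKM libraries, but its sum includes Tead2, which met the minimum level only through those libraries. Tead3 added 1.91 and 0.666 scaled RPKM in the controls, from 26 and 9 reads. The share is therefore no separate result about Tead1. In this share the 2 controls differed from each other by more than the OSKM libraries did from Control-CMs replicate 3.

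The LATS kinases did not differ beyond their spread. Lats1 (ENSMUSG00000040021.6) had 1.78, 2.29 and 1.83 scaled RPKM in OSKM-CMs and 1.76 and 2.49 in controls, from 40 to 56 reads a library. Its log2 fold change was -0.07 (95% interval -0.52 to 0.38, limma adjusted p = 0.816). Lats2 (ENSMUSG00000021959.9), whose gene is itself a YAP target, had 4.55, 4.4 and 3.4 against 3.75 and 6.06 in controls. Its log2 difference was -0.19 (95% interval -0.68 to 0.31, limma adjusted p = 0.545). The controls bracketed all OSKM values of both genes except Lats2 in OSKM-CMs replicate 3, which was lower. Both changed sign with library totals alone (0.21 for Lats1 and 0.16 for Lats2) and without Control-CMs replicate 5 (0.10 for each).

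Amotl1, which encodes an angiomotin that binds YAP and holds it at tight junctions and in the cytoplasm, was the member that fell. Amotl1 (ENSMUSG00000013076.8) had 6.75, 5.66 and 6.29 scaled RPKM in OSKM-CMs and 11.2 and 9.04 in controls. Every OSKM library was below both controls. The mean fell from 10.1 ± 1.5 (SD, n = 2) to 6.23 ± 0.549 (SD, n = 3), or by 0.61 on the log2 scale (SE 0.15, limma adjusted p = 0.0211). The fall did not pass with library totals alone (-0.24, limma adjusted p = 0.292), without OSKM-CMs replicate 2 (-0.56, 0.0518), OSKM-CMs replicate 3 (-0.62, 0.0584) or Control-CMs replicate 3 (-0.48, 0.112). Its relatives Amot and Amotl2 had log2 fold changes of -0.27 and -0.34 (limma adjusted p = 0.301 and 0.231). Within a library, the ratio of Amotl1 to Yap1 was 0.563 to 0.618 in OSKM-CMs and 1.30 and 0.888 in controls, a comparison that the scaling does not touch.

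**Figure D2:**
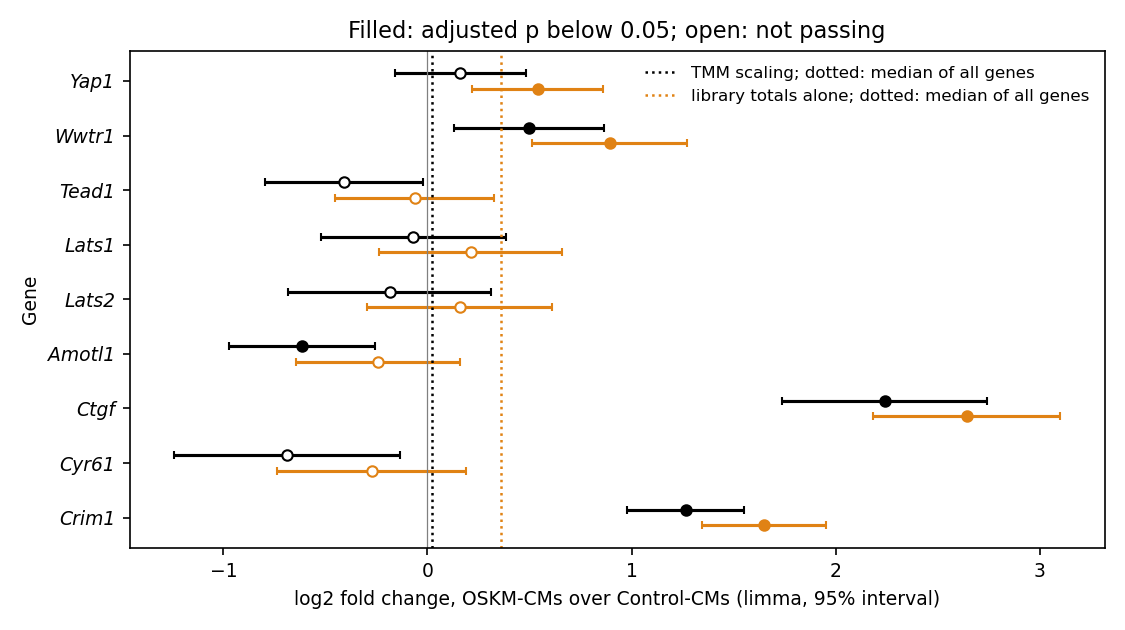
Log2 fold change of each member (x axis, OSKM-CMs over Control-CMs) with its 95% interval from limma, under TMM scaling (black) and library totals alone (orange); filled points passed at an adjusted p below 0.05, and dotted lines mark the median of all tested genes under each scaling. Ctgf and Crim1 lie far to the right under both, whereas Yap1 and Amotl1 change call with the scaling.

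Beside Lats2, the members hold 3 genes listed as YAP targets, and these went different ways: Ctgf and Crim1 rose, and Cyr61 was lower without passing. Ctgf (ENSMUSG00000019997.4), connective tissue growth factor or CCN2, is a secreted matricellular protein that promotes matrix deposition. It had 91.0, 67.2 and 103.5 scaled RPKM in OSKM-CMs and 14.7 and 20.5 in controls, from 521 to 789 and 114 to 157 reads. The lowest OSKM library was still above 3 times the highest control. Its mean rose 4.95-fold, from 17.6 ± 4.07 (SD, n = 2) to 87.2 ± 18.5 (SD, n = 3), a log2 difference of 2.24 (SE 0.21, limma adjusted p = 0.000536). Ranked from the top among the 10915 tested genes, its log2 fold change was at place 105. The call held in all 14 alternative settings, at 2.02 to 2.64.

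Crim1 (ENSMUSG00000024074.7), a transmembrane protein that binds bone morphogenetic proteins, had 20.2, 20.8 and 19.0 scaled RPKM in OSKM-CMs and 7.53 and 7.93 in controls. Its OSKM libraries lay closer together than those of Ctgf or Wwtr1. The mean rose 2.59-fold, from 7.73 ± 0.281 (SD, n = 2) to 20.004 ± 0.873 (SD, n = 3), a log2 difference of 1.27 (SE 0.12, limma adjusted p = 0.000481). This call also held in all 14 alternative settings, at 0.97 to 1.65.

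Cyr61 (ENSMUSG00000028195.3), or CCN1, is the closest relative of Ctgf among the members and an immediate early gene. It had 85.1, 95.4 and 64.2 scaled RPKM in OSKM-CMs and 104.6 and 162.5 in controls. All OSKM values were below both controls, which differed widely from each other. The log2 fold change was -0.69 (SE 0.23, 95% interval -1.24 to -0.14, limma adjusted p = 0.0644). It passed with limma voom (-0.69, adjusted p = 0.0234) and without Control-CMs replicate 3 (-1.01, limma adjusted p = 0.0242), and was -0.27 with library totals alone.

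The divergence of these targets showed most directly as a ratio within each library, where scaling cancels. Ctgf reached 1.07, 0.704 and 1.61 times the level of Cyr61 in OSKM-CMs and 0.141 and 0.126 times in controls, a mean log2 difference of 3.00. The Crim1 to Cyr61 ratio was 0.238, 0.218 and 0.297 in OSKM-CMs and 0.0720 and 0.0488 in controls. Neither pair of ranges overlapped. In an exact permutation test (2-sided) each gave p = 0.1, the smallest that 3 against 2 libraries allow. The 6 pairs tested were chosen after the values had been seen, and their adjusted p was no lower than 0.15.

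**Figure D3:**
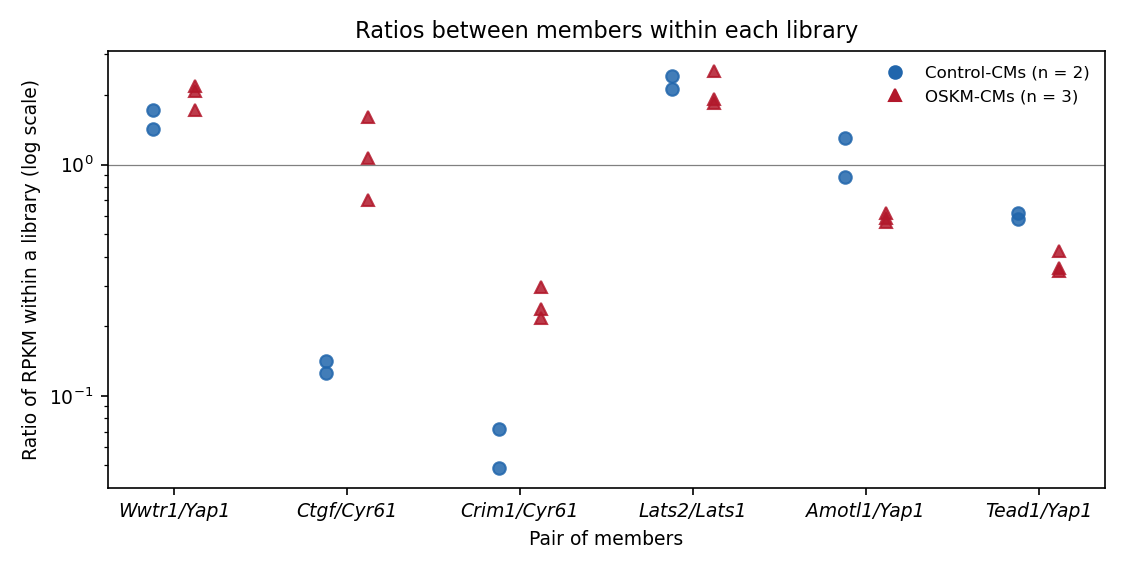
Ratio of RPKM between 2 members within each library, on a log axis, for 6 pairs (circles Control-CMs, triangles OSKM-CMs). Ctgf/Cyr61 is 0.126 and 0.141 in the controls and 0.704 to 1.61 in OSKM-CMs, while Lats2/Lats1 overlaps.

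Ctgf and Cyr61 are also expressed by fibroblasts, endothelial and mural cells. Summed fibroblast markers were 150.02, 71.4 and 146.05 scaled RPKM in the OSKM libraries, and 73.5 and 36.8 in the control libraries. Within OSKM-CMs, Ctgf and Wwtr1 were lowest in replicate 2, and so were Yap1, Tead1 and Amotl1, which did not rise. Crim1, Lats1 and Cyr61 were highest in that library, and Lats2 was in between. In the controls (replicates 3 and 5), Ctgf was at 14.7 and 20.5 scaled RPKM and Wwtr1 at 14.8 and 14.5, while the fibroblast sum was higher in replicate 3. Within that group, the fibroblast, endothelial, mural, macrophage and mesothelial sums were all lowest in replicate 2, and the cardiomyocyte sum was highest. Single mural and cardiomyocyte markers did not all follow their sums. Rgs5 was lowest there (21.6 scaled RPKM against 56.9 and 42.5 in replicates 1 and 3), as were Kcnj8 and Notch3, but Myh11 and Pdgfrb were highest. Myh6, Actc1, Tnni3, Myl2 and Pln were highest there, but Tnnt2 was lowest (2852 against 3267 and 3193), and Ryr2 and Actn2 were in between. OSKM-CMs replicate 2 had a fibroblast sum close to that of Control-CMs replicate 3, but their makeup differed. Its collagen genes were higher than in that control (Col1a1 3.25 against 1.14, Col1a2 5.27 against 1.81 and Col3a1 23.9 against 9.25 scaled RPKM), and Dcn was lower (28.3 against 42.2). Endothelial marker sums were 76.1, 36.9 and 53.0 scaled RPKM in the OSKM libraries and 114.7 and 90.6 in the control libraries, lower in OSKM-CMs as Cyr61 was. Within OSKM-CMs, Cyr61 was highest in replicate 2, where the endothelial sum was lowest. Of the mural markers, Cspg4 rose from 1.81 scaled RPKM in Control-CMs to 22.7 in OSKM-CMs, and Pdgfrb from 4.17 to 8.47. The other 5 mural markers did not pass. The part of any of these cell types in these results was not tested.

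Per length, the order of the members differed between the groups at the top. In Control-CMs, Cyr61 (133.5 ± 40.98 scaled RPKM) stood far above Ctgf and Wwtr1, which overlapped. Amotl1 and Yap1 followed and overlapped, then came Crim1, Tead1 and Lats2 (the last pair overlapping), and Lats1 was lowest at 2.13 ± 0.515. In OSKM-CMs, Ctgf (87.2) and Cyr61 (81.6 ± 15.9) overlapped at the top, Wwtr1 and Crim1 overlapped next, and then came Yap1, Amotl1, the overlapping Lats2 and Tead1, and Lats1 at 1.97 ± 0.277. Crim1 thus stood below Yap1 and Amotl1 in controls and above both in OSKM-CMs.

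By Euclidean distance between centred log2 profiles over the 5 libraries, the genes nearest to Ctgf were 2410137F16Rik (0.16), Rps26-ps1 (0.18) and Chmp4c (0.26). The median distance of all tested genes to Ctgf was 2.52. Chmp4c, a subunit of the ESCRT-III membrane scission machinery, had 44.8, 36.2 and 45.1 scaled RPKM in OSKM-CMs and 6.95 and 8.59 in controls. Rps26-ps1 is a ribosomal protein pseudogene whose reads may belong to its parent gene. 2410137F16Rik had almost no control reads and met the minimum level only through the OSKM libraries. Its mean went from 0.089 scaled RPKM in controls to 4.21 in OSKM-CMs, 47.3-fold against 4.95-fold for Ctgf. Its small distance therefore depends on the 1 added before logs.

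The other genes of the pathway were followed in 4 lists with 112 different genes, of which 91 were tested. In all 24 were higher, 7 lower and 60 did not pass, with a median log2 fold change of 0.18 against 0.02 for all tested genes. With library totals alone 43 were higher and 5 lower, at a median of 0.54. Across all tested genes 15.9% were higher and 14.3% lower (30.2% in all), and the counts of each list below are to be read against these shares. Of the tested genes, 5 (Dlg5, Stk26, Tead2, Wtip and Anln) had a mean below 1 scaled RPKM in 1 of the groups and so met the minimum level mainly through the other.

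Most upstream regulators did not pass. Of 24 tested (32 listed), 2 were higher, 2 lower and 20 did not pass, with a median log2 fold change of 0.08. Gna12, the alpha subunit of a heterotrimeric G protein, had 14.3, 18.2 and 15.1 scaled RPKM in OSKM-CMs and 50.8 and 55.4 in controls. It fell by 1.69 on the log2 scale (SE 0.14, limma adjusted p = 0.000273), and passed in all 14 alternative settings. Rhoa, the small GTPase that keeps YAP active through the actin cytoskeleton, rose by 0.47 on the log2 scale (limma adjusted p = 0.0151). Wwc2, a KIBRA family scaffold, rose by 0.63 (0.0268), and Map4k2, a kinase that can activate LATS in parallel to MST, fell by 0.83 (0.0206). The Rhoa call was lost without OSKM-CMs replicate 3, Control-CMs replicate 3 or Control-CMs replicate 5 (0.44 to 0.47, limma adjusted p from 0.0562 to 0.0689). That of Wwc2 was lost without these or OSKM-CMs replicate 1 (0.53 to 0.67, limma adjusted p from 0.0801 to 0.103). Map4k2 did not pass without OSKM-CMs replicate 3, Control-CMs replicate 3 or Control-CMs replicate 5 (-0.93 to -0.69, limma adjusted p from 0.056 to 0.0944) or with library totals alone (-0.55, 0.0725). Nf2, the tumour suppressor merlin, had 22.4 scaled RPKM in OSKM-CMs and 17.5 in controls (log2 fold change 0.34, limma adjusted p = 0.0615).

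In the kinase cassette and its STRIPAK phosphatase complex, which removes activating phosphates from MST kinases, 6 of 24 tested genes were higher, 2 lower and 16 did not pass (median 0.24). Stk3, which encodes MST2, had 6.15, 4.37 and 6.07 scaled RPKM in OSKM-CMs and 1.89 and 2.52 in controls, and its mean rose 2.51-fold (1.02 on the log2 scale, SE 0.19, limma adjusted p = 0.00714). Stk4, which encodes MST1, had 0.30 (limma adjusted p = 0.159). Sav1, their scaffold, rose from 5.32 ± 0.962 to 8.75 ± 1.38 scaled RPKM (0.62, limma adjusted p = 0.0331). Sav1 lost its call without OSKM-CMs replicate 1 (0.64, limma adjusted p = 0.0863), OSKM-CMs replicate 3 (0.52, 0.102) or Control-CMs replicate 5 (0.47, 0.160). The LATS-related kinase gene Stk38l rose 2.11-fold, and Stk38 had 0.52 (limma adjusted p = 0.062).

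STRIPAK members moved both ways. Strn, a striatin scaffold, rose from 6.18 ± 0.352 to 15.1 ± 2.87 scaled RPKM (1.15, SE 0.18, limma adjusted p = 0.00313), and Slmap, a membrane-anchored adaptor of the complex, rose from 35.3 ± 1.55 to 65.0 ± 8.75 (0.86, limma adjusted p = 0.00398). The kinase gene Stk26, listed under 2610018G03Rik, rose from 0.585 ± 0.308 to 3.24 ± 1.36 scaled RPKM (1.38, limma adjusted p = 0.0117), but not without Control-CMs replicate 3 (1.2, 0.0622). With 6 and 13 control reads, it too met the minimum level only through the OSKM libraries. Strip2, listed as Fam40b, fell by 0.89 and the kinase gene Stk24 by 0.85 on the log2 scale (limma adjusted p = 0.00277 and 0.0053). The catalytic subunit genes Ppp2ca and Ppp2cb had -0.05 and -0.07, with overlapping libraries. Slmap, Sav1 and Ywhaz, Ankrd1 further below, and every list gene named that did not pass were singled out after their values had been seen.

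Among TEAD cofactors and adaptors, 7 of 25 tested genes were higher, 1 lower and 17 did not pass (median 0.11). The 14-3-3 proteins hold phosphorylated YAP in the cytoplasm, and 3 of their 6 genes tested rose under TMM scaling. Ywhah went from 7.12 ± 0.879 to 22.1 ± 1.31 scaled RPKM, 3.11 times the control level (limma adjusted p = 0.000354), while Ywhaq rose 1.88-fold (0.00462) and Ywhaz by 0.71 on the log2 scale (0.00836). All 3 passed in all 14 alternative settings. Ywhab, Ywhae and Ywhag did not pass, at 0.29, 0.13 and -0.30. Wtip, a LIM protein that can inhibit LATS, was the one that fell, by 1.05 (limma adjusted p = 0.00678), to 0.857 ± 0.142 from 2.85 ± 0.586 scaled RPKM. Wtip had 5 to 7 reads in the OSKM libraries and met the minimum level through the controls. Vgll4, which competes with YAP for TEAD, had 2.89 scaled RPKM in OSKM-CMs and 4.87 in controls (-0.62, limma adjusted p = 0.0707).

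Other YAP and TEAD target genes had the highest median of the 4 lists, 0.56 on the log2 scale. Of 21 tested (30 listed), 9 were higher, 2 lower and 10 did not pass, against 15.9% higher and 14.3% lower among all tested genes. Nt5e, the ecto-nucleotidase CD73, had 54.8, 38.1 and 70.3 scaled RPKM in OSKM-CMs and 8.01 and 7.82 in controls, a log2 difference of 2.59 (SE 0.24, limma adjusted p = 0.000511). Tgm2, tissue transglutaminase, which crosslinks matrix proteins, went from 31.97 ± 5.75 to 152.6 ± 7.96 scaled RPKM, 4.77 times the control level (limma adjusted p = 7.84e-05). Col8a1, a short-chain collagen, rose from 1.17 ± 0.395 to 13.2 ± 6.05 (limma adjusted p = 0.00288), and Fstl1, a secreted glycoprotein, from 3.59 ± 1.42 to 18.7 ± 7.26 (0.00893). Ankrd1, a stretch-responsive cardiac repeat protein, had 1805, 1396 and 2809 scaled RPKM in OSKM-CMs and 552 and 417 in controls (limma adjusted p = 0.00436). Of the 9 higher targets, 7 were lowest among the OSKM libraries in replicate 2 (Col8a1, Fstl1, Nt5e, Tgm2, Ankrd1, Ccdc80 and F3). For F3 the margin was small (13.03 against 13.2 scaled RPKM in replicate 1). The other 2, Dock5 and Anln, were highest in replicate 2. Among the OSKM libraries, replicate 2 also had the lowest fibroblast, endothelial, mural, macrophage and mesothelial marker sums, and the highest cardiomyocyte sum. Single mural and cardiomyocyte markers did not all follow these sums. The part of any cell type in these results was not tested. Gadd45a, a growth arrest and DNA damage gene, fell by 1.5 on the log2 scale (limma adjusted p = 0.00154).

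Of the targets that also regulate the pathway, and so stand in 2 lists, Amotl2 had -0.34, Ptpn14 -0.02 and Ajuba, listed as Jub, -0.14 on the log2 scale, and these did not pass. Axl, a receptor tyrosine kinase often used as a YAP target, had 0.10 (limma adjusted p = 0.737).

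**Figure D4:**
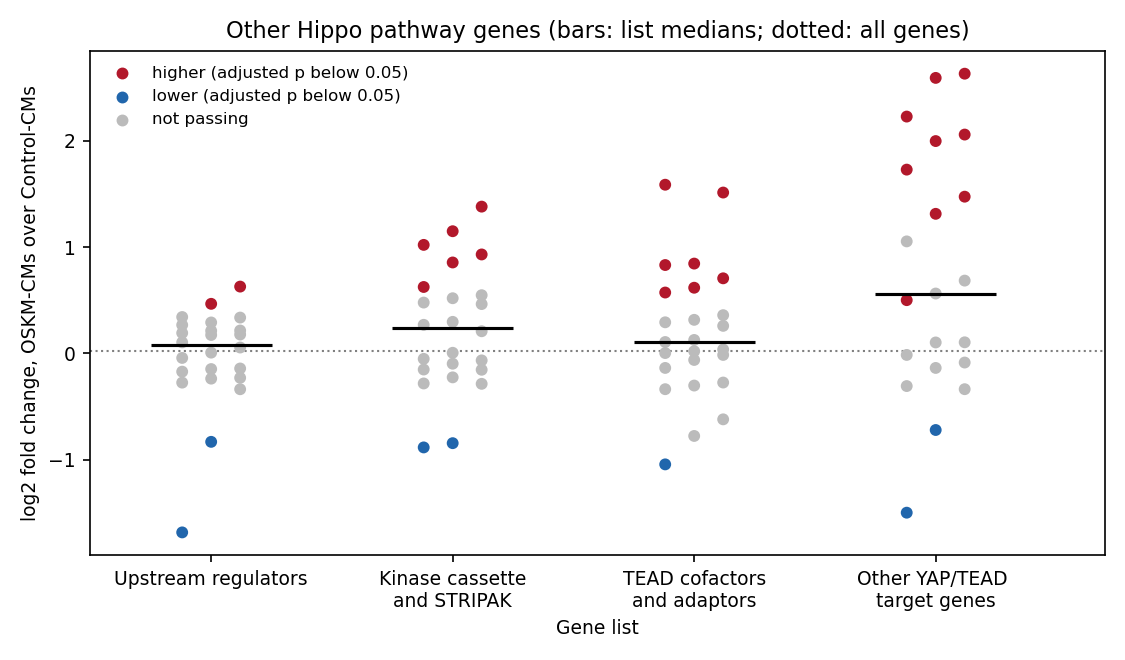
Log2 fold change (y axis, OSKM-CMs over Control-CMs) of the tested genes of each pathway list; red points were higher and blue points lower at a limma adjusted p below 0.05, grey points did not pass, bars are list medians and the dotted line is the median of all tested genes. The list of target genes has its median at 0.56, and that of upstream regulators at 0.08.

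**Figure D5:**
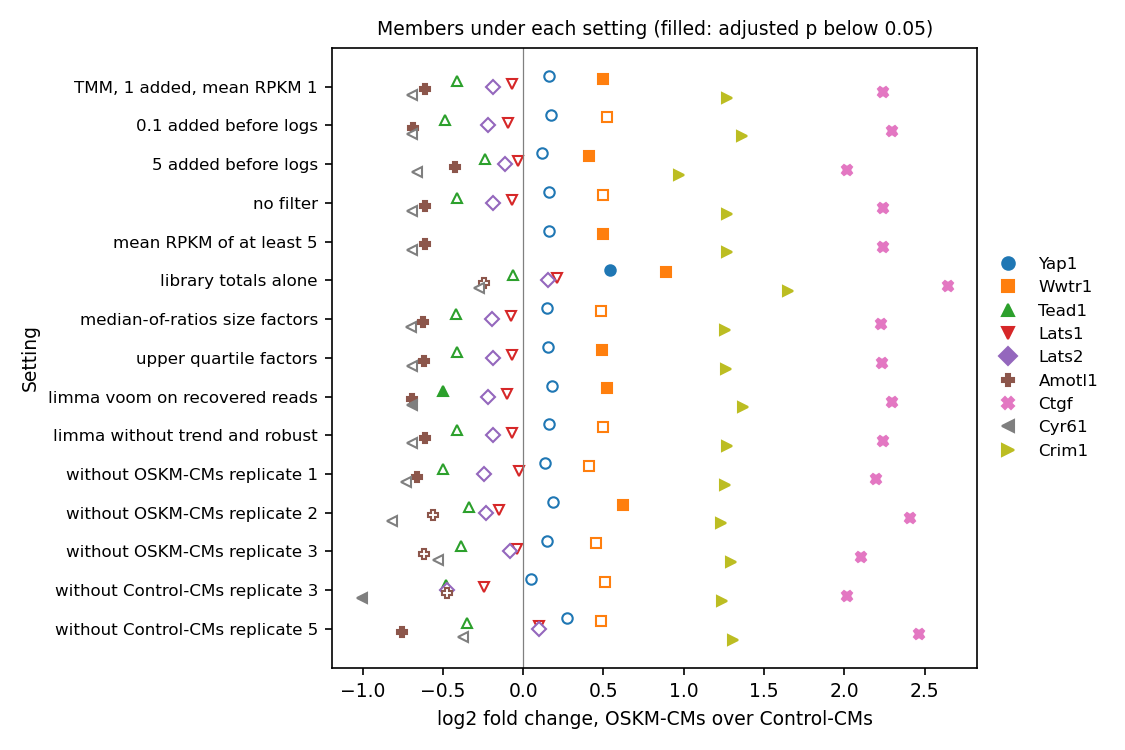
Log2 fold change of each member (x axis) under each processing setting (y axis), with filled symbols where the limma adjusted p was below 0.05. Ctgf and Crim1 are filled in every row, whereas Wwtr1 is open in 8 of the 14 alternatives.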

How the data were processed

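Gene expression was measured by bulk RNA sequencing in 5 libraries. STAR 2.5.3, HTSeq, CASAVA 1.8.2, Trimmomatic, FastQC and the build mm9 are named in the submitters' processing notes, and annotation and strand setting are not given in the sources used here. Without a strand setting, reads of overlapping antisense genes cannot be told apart. The authors deposited 1 value per gene and library, taken as RPKM because no header names the unit. Beside these the authors deposited log2 fold changes with average log2 abundances, a likelihood-ratio score, and a p-value with its FDR, per the file headers.

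Whole reads were recovered from the RPKM steps for all 12446 genes (within 0.0001 reads). They served for TMM factors (30% of log ratios and 5% of abundances trimmed) and limma voom. The median-of-ratios and upper quartile factors of the alternative settings, and the read numbers quoted, also came from them. A count of 0 allows up to 3 reads, or 0.777 to 1.11 CPM, counting error only. A minimum mean RPKM of 1 was set. In R 4.3.3, limma 3.58.1 with trend and robust was run on the log2 values with 1 added, 2-sided, at an adjusted p of 0.05. The procedure was also run on simulated reads with the same spread setting for every gene. That run does not show how the procedure performs at the spread of these libraries. Named genes were all members, the 4 largest calls in each direction per pathway list, and the 3 genes nearest to Ctgf; 2 of these are not reported here. Members and lists were chosen with earlier results of these data known. Alternatives changed the added constant, filter, scaling, test and libraries.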

Additional observations from a re-analysis of the deposited data

How the results depend on the processing

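No paired analysis was possible because replicate number 3 is the lone one in common. Tests with edgeR and DESeq2 were planned but left out because the deposited values were taken as RPKM. The recovered reads did not prevent such tests, and limma voom was run on them. With library totals alone, 3985 genes were higher and 650 lower, 43 pathway list genes were higher, and 0 members were lower (limma; 0 also at an unadjusted p below 0.05). In a separate setting, limma voom with TMM scaling called 3 members lower. A mean RPKM of at least 5 left 4 list genes lower, and no value for Tead1, Lats1 or Lats2. Leaving out each library gave 1158 to 1562 genes higher and 953 to 1504 lower, 2 to 3 members higher and 0 to 1 lower, and 17 to 26 list genes higher and 5 to 7 lower. The lowest count of higher genes came without OSKM-CMs replicate 3, that of lower genes without Control-CMs replicate 5, and no member was lower without OSKM-CMs replicates 2 or 3. Lats1 and Lats2 turned to 0.21 and 0.16 with library totals alone and to 0.10 and 0.10 without Control-CMs replicate 5, and their lowest values without a library were -0.24 and -0.47 (without Control-CMs replicate 3); the cause was not tested. Of 550 values of single genes under the 14 alternatives, 492 kept direction and call, 50 lost the call, 4 gained it and 4 changed sign. These values covered the 9 members and the 31 pathway list genes called under TMM scaling. The 60 list genes that did not pass were left out, so no list gene could gain a call and these counts describe no wider set. With 3 and 2 libraries, changes as small as those of Yap1, Lats1 and Lats2 were not detectable at this depth and spread.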
